A study of Mus musculus with 8 samples.

Results

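Sphingosine 1-phosphate (S1P) signalling was described in mouse tissue labelled as dorsal root ganglia through 7 genes, found by their symbols among the 18560 genes of the deposited expression table. They were the sphingosine kinases Sphk1 and Sphk2, the S1P lyase Sgpl1 and the receptors S1pr1, S1pr2, S1pr3 and S1pr5. All 7 had a row and passed the filter on low counts, as did 15098 genes in all. These ganglia, beside the spine, contain sensory neuron somata with their satellite and Schwann cells. Spinal cord markers go against that label in all 8 libraries, less so in WT replicate 2, as given with the marker values. RNA sequencing covered 4 libraries labelled cKO, a conditional deletion of the mRNA export adaptor Alyref, and 4 labelled WT, all with the age label P60. The Cre driver, the cells it acts in and any floxed allele in the WT animals are not stated in the sources used here.

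S1P is a lipid messenger made from sphingosine by the kinases and destroyed for good by the lyase in the endoplasmic reticulum. Exported S1P acts on G protein-coupled receptors, of which S1pr1 couples to Gi, S1pr2 and S1pr3 also to Gq and G12/13, and S1pr5 to Gi and G12/13. In nervous tissue S1pr1 is known from astrocytes and endothelium, S1pr5 from oligodendrocytes and S1pr3 from pain-sensing neurons, where S1P alters excitability.

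The genes were chosen by their role in the pathway with the fold changes and p-values of the cKO against WT contrast known, in which Sphk2 ranked 41 of 15098 genes by p-value. Differences between the groups are therefore given for the 7 genes as descriptions with 95% intervals and without a test. The edgeR quasi-likelihood test over all genes called none (lowest adjusted p = 0.887), so 0 of the 7 were called against a background of 0% of all tested genes. Without adjustment 249 genes had p below 0.05, of which 60 were higher (0.397% of those tested) and 189 lower (1.25%) in libraries labelled cKO, and DESeq2 called 1 gene, which is no member.

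Alyref itself stood at 21.6, 19.4, 20.1 and 20.7 CPM (estimated counts scaled to library size) in the libraries labelled cKO, against 20.9, 25.7, 19.4 and 22.2 CPM in those labelled WT. Those ranges overlapped and the gene was not called (adjusted p = 0.887, edgeR), so whole-tissue Alyref mRNA did not separate the groups, and all directions given here follow the labels. Total estimated counts were 15522915 to 16482614 per library. WT replicate 2 stood apart from the other libraries, with Spearman correlations of 0.944 to 0.967 to them and of 0.990 to 0.996 among them. The 12 nociceptor markers summed to 294.0 to 777 CPM in cKO and 336 to 2815 CPM in WT, where replicate 2 was highest. The 12 oligodendrocyte markers summed to 13972 to 20544 CPM in cKO and 5971 to 20357 CPM in WT, and the 11 measured spinal neuron markers to 1330 to 1517 CPM in cKO and 793 to 1498 CPM in WT, where replicate 2 was lowest in both lists. No marker of these 3 lists was at 0 in any library. The sensory neuron gene Avil had 398 CPM in WT replicate 2 and 14.1 to 96.6 CPM in the other 7 libraries. Genes of the central nervous system ran the other way: the glycine transporter gene Slc6a5 had 234 CPM in WT replicate 2 and 447 to 536 CPM in the other 7, the astrocyte glutamate transporter gene Slc1a2 had 878 and 2146 to 2688 CPM, and the central myelin gene Mog had 86.5 and 194 to 359 CPM. Other ganglion lists were mixed. The 10 pan-sensory neuron markers summed to 7336 CPM in WT replicate 2, within the 6795 to 8725 CPM of the other 7. Of these markers 7 were highest and 3 lowest there. The 12 Schwann and satellite cell markers summed to 14362 CPM there, against 19188 to 29844 CPM, with 8 highest and 2 lowest there. By the nociceptor and spinal cord markers the 7 libraries were rich in spinal cord genes and WT replicate 2 was the most ganglion-like of the 8. Spinal neuron markers were also present in WT replicate 2, at a sum of 793 CPM.

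Transcript levels per length ordered the 7 genes clearly at the top and loosely at the bottom. S1pr1 was highest, at 82.4 ± 4.51 TPM (a level per transcript length) in cKO and 74.5 ± 17.5 TPM in WT (SD, n = 4 each), and it exceeded S1pr5 in 8 of 8 libraries. S1pr5 followed at 34.5 ± 6.19 TPM in cKO and 25.8 ± 11.8 TPM in WT. Sgpl1 stood at 26.2 ± 1.88 TPM in cKO and 25.2 ± 1.76 TPM in WT. S1pr5 lay above Sgpl1 in 6 of 8 libraries, so these neighbours were not separated beyond the spread of the libraries. Sphk2 had 20.05 ± 1.79 TPM in cKO and 17.5 ± 1.26 TPM in WT, below Sgpl1 in all 8 libraries. S1pr3, Sphk1 and S1pr2 formed the low end, with means over the 8 libraries of 7.98, 4.18 and 3.15 TPM, and each of the 2 neighbouring pairs kept its order in 6 of 8 libraries. Sphk2 exceeded S1pr3 in 7 of 8, the exception being WT replicate 2. S1pr4, a receptor of lymphoid cells outside the group, averaged 0.966 TPM.

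**Figure D1:**
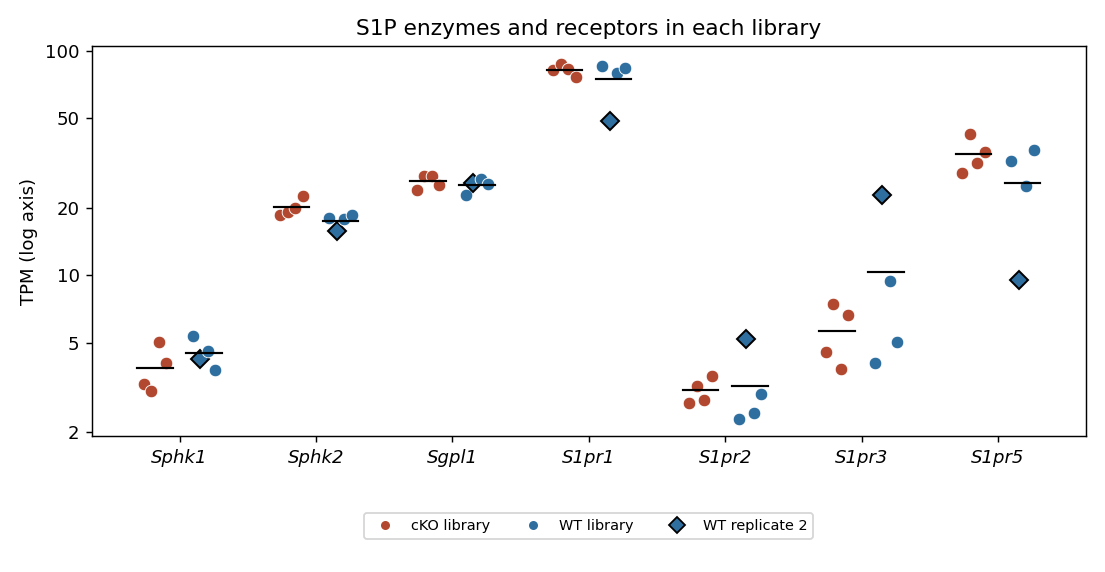
Level of each S1P gene in TPM on a log axis, with 1 point per library, cKO (red) left of WT (blue); black bars are group means of 4 libraries. WT replicate 2 (diamond) is lowest for S1pr1 at 48.5 TPM and S1pr5 at 9.54 TPM, and highest for S1pr2 at 5.23 TPM and S1pr3 at 22.8 TPM.

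The start sites of 4 of the genes are shown because they belong to the gene whose groups did not overlap (Sphk2) and to the 3 receptors furthest from the other libraries in WT replicate 2 (S1pr2 and S1pr3 high, S1pr5 low). Each is a window of 300 bases that holds the RefSeq start on GRCm38.p6, 5′ to 3′ on the gene's strand. For Sphk2 the start at the end of the annotated gene is given. Capitals mark GGGCGG, the GC box, on either strand (CCGCCC where it lies on the other one).
Sphk2, chr7:45717953-45718252, minus strand: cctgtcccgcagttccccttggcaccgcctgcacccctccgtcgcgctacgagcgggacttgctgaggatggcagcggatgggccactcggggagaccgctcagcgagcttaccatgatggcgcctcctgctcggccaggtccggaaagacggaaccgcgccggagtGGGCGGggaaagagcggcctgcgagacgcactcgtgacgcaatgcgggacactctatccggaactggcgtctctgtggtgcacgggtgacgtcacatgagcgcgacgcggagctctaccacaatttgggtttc
S1pr2, chr9:20976744-20977043, minus strand: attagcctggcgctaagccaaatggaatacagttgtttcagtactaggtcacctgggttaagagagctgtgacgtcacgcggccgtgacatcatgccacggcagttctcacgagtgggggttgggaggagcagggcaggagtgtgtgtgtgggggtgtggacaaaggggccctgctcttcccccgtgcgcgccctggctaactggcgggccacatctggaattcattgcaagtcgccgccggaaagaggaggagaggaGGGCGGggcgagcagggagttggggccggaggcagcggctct
S1pr3, chr13:51408368-51408667, plus strand: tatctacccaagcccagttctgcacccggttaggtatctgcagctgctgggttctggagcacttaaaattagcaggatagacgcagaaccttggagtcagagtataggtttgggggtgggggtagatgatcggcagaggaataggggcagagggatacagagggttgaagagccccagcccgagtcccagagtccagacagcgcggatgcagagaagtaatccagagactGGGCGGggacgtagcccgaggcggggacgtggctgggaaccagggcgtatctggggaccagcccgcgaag
S1pr5, chr9:21248394-21248693, minus strand: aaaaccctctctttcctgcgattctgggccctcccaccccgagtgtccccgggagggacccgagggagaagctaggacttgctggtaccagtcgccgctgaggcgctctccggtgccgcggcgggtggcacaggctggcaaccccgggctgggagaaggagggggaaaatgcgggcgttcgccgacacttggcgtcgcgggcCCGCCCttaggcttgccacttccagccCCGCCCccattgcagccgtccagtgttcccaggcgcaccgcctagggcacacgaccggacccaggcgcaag

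The 4 windows were rich in G and C, at 66.0% for Sphk2, 62.0% for S1pr2, 59.0% for S1pr3 and 69.3% for S1pr5, against a median of 52.7% over 32851 promoters of the same length. They held 33, 18, 14 and 27 CpG pairs in the same order, where the median promoter holds 7. GGGCGG occurred 2 times in S1pr5 and 1 time in each of the others, and 35.7% of promoters hold it. None of the 4 had the TATA motif TATAAA on either strand, which 13.6% of promoters hold. Neither CCAAT, the motif of NF-Y, held by 37.4%, nor the E-box CACGTG, held by 7.15%, was among their letters. These counts describe the windows and show no binding.

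Among the kinases, Sphk2 was higher in every library labelled cKO than in any labelled WT on the CPM scale, while Sphk1 was not. Sphk2, the mainly nuclear and mitochondrial kinase (Entrez 56632, chromosome 7, 45709463 to 45718002, GRCm38), had 27.1, 28.7, 28.6 and 31.2 CPM in cKO replicates 1 to 4, against 25.2, 25.6, 25.3 and 25.5 CPM in WT replicates 1 to 4. The cKO values were spread over several units and the WT values over less than 1. Its log2 fold change was 0.19 ± 0.063 (SE; 95% interval 0.04 to 0.33), or 1.14 times the WT level. Groups did not overlap in this direction for 91 genes, or 0.603% of those tested, and since this contrast brought the gene forward nothing is read from it.

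The SD of Sphk2 between WT libraries was 0.188 CPM, smaller than the 1.25 CPM that counting error alone gives at its 382 to 441 estimated counts. In cKO the SD was 1.70 CPM, against a counting error of 1.35 CPM. On the TPM scale the groups touched: cKO libraries had 18.55, 19.07, 19.99 and 22.59 TPM, against 17.94, 15.73, 17.86 and 18.63 TPM in WT. WT replicate 4 then lay above cKO replicate 1, so the separation depended on the scale. Leaving out any library kept the sign, which the lack of overlap in CPM all but fixes in advance, so nothing is read from it. Log2 fold changes were 0.15 to 0.22 over 16 alternative settings.

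Sphk2 also shares its locus. By GENCODE M21, 912 of its 4159 exonic bases (21.9%) are exonic in Dbp or Rpl18 as well, both on the opposite strand. The strand setting of the libraries is not stated in the sources used here, so reads from the shared bases could not be assigned by strand. Sphk2 and Dbp, a clock-controlled transcription factor gene, had estimated counts that were not whole numbers in 8 of 8 libraries, while Rpl18 and the other 6 S1P genes had whole counts in all 8 (no decimal part, with a tolerance of 0). Dbp stood at 46.1, 53.5, 44.0 and 51.8 CPM in cKO, against 42.6, 51.3, 53.4 and 67.5 CPM in WT. Rpl18, a ribosomal protein gene, had 113 ± 9.11 CPM in cKO and 128 ± 35.1 CPM in WT (SD, n = 4 each). Neither neighbour was called (adjusted p = 0.887 for both, edgeR), and the means of both were lower in cKO. For Rpl18 this rested on WT replicate 2, at 180 CPM. The other WT libraries had 105 to 115 CPM, against 102 to 122 CPM in cKO. The part of Dbp and Rpl18 in the Sphk2 value was not tested.

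**Figure D2:**
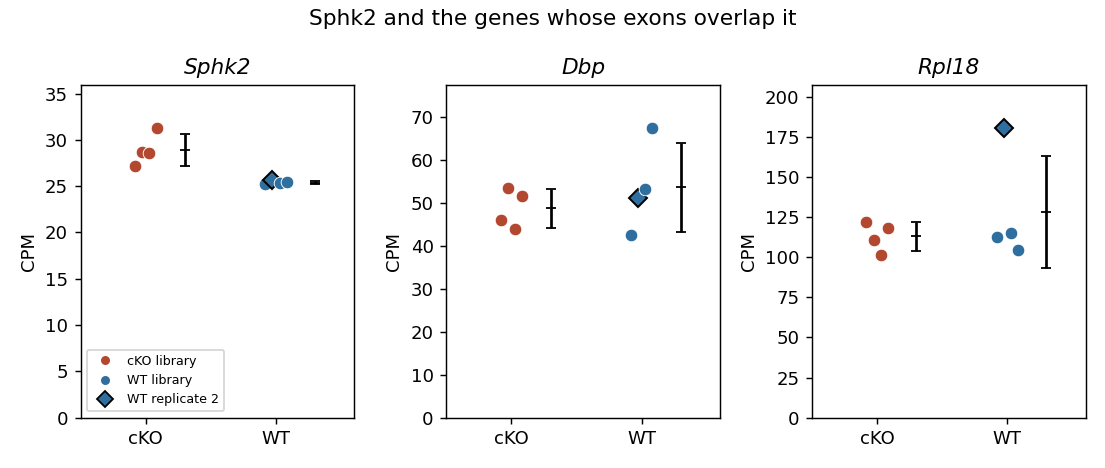
CPM of Sphk2 and of the 2 genes whose exons overlap it on the opposite strand, 1 point per library, cKO left of WT, with the group mean and SD (n = 4 each) beside the points. Sphk2 runs from 27.1 to 31.2 CPM in cKO and from 25.2 to 25.6 CPM in WT, while Dbp and Rpl18 overlap between the groups.

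Sphk1, the cytoplasmic kinase that growth factors and cytokines activate (Entrez 20698, chromosome 11, 116530836 to 116536675), was the scarcer kinase. It had 3.53, 3.96, 4.64 and 4.69 CPM in cKO, against 4.94, 4.36, 4.57 and 3.49 CPM in WT. The groups overlapped fully. The log2 fold change was −0.04 ± 0.16 (SE; 95% interval −0.42 to 0.33), on only 56 to 75 estimated counts per library. Its SD of 0.557 CPM in cKO and 0.619 CPM in WT was close to the counting error of 0.514 CPM in cKO and 0.517 CPM in WT. Sphk2 exceeded Sphk1 3.96 to 6.25 times in TPM in cKO libraries and 3.33 to 4.94 times in WT libraries, ranges that overlapped.

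Sgpl1, the lyase (Entrez 20397, chromosome 10, 61098642 to 61147684), had 46.8, 55.1, 52.8 and 50.4 CPM in cKO, against 44.7, 56.1, 52.0 and 48.9 CPM in WT. Both groups covered nearly the same range. Its log2 fold change was 0.02 ± 0.086 (SE), with a 95% interval from −0.17 to 0.22, and 0.08 ± 0.073 without WT replicate 2 (95% interval −0.08 to 0.25). In WT replicate 2 it was 1.11 times the median of the other libraries, the highest of the 8 but close to cKO replicate 2.

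In WT replicate 2, S1pr1 and S1pr5 were at their lowest and S1pr2 and S1pr3 at their highest of the 8 libraries. Such extremes were common, as that library was highest for 5665 and lowest for 5548 of all 15098 tested genes. S1pr1, which guides lymphocyte exit and tightens endothelial junctions (Entrez 13609, chromosome 3, 115710433 to 115715055), had 115.6, 124.5, 113.2 and 109.2 CPM in cKO, against 121.2, 76.1, 110.5 and 115.5 CPM in WT. Only WT replicate 2 was low, at 0.659 times the median of the other 7, whose coefficient of variation was 4.78%. Astrocyte markers summed to 3635 CPM in WT replicate 2, against 7315 to 9856 CPM in the other 7 libraries. Endothelial markers summed to 272 CPM there, within the 174 to 309 CPM of the other 7. The part of either list in the S1pr1 value was not tested. The log2 fold change of 0.13 ± 0.14 (SE; 95% interval −0.18 to 0.44) was 0.00 ± 0.055 without that library (95% interval −0.12 to 0.12).

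S1pr5, a receptor of oligodendrocytes and natural killer cells (Entrez 94226, chromosome 9, 21242917 to 21248443), was the most abundant receptor after S1pr1 in mean TPM. In WT replicate 2 it lay below S1pr3, at 9.54 against 22.8 TPM. S1pr5 had 32.0, 48.8, 34.6 and 40.4 CPM in cKO, against 36.7, 12.02, 27.7 and 40.0 CPM in WT. WT replicate 2 was lowest, at 0.327 times the median of the others, and WT replicate 3 was next. The log2 fold change was 0.42 ± 0.33 (SE; 95% interval −0.32 to 1.17), and 0.16 ± 0.16 without WT replicate 2 (95% interval −0.20 to 0.53). The same library held the lowest oligodendrocyte marker sum, 5971 CPM, and the part of these markers in the difference was not tested. In bulk tissue fewer cells of a type and less RNA per cell cannot be told apart.

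S1pr3, a receptor of vessel walls and sensory neurons (Entrez 13610, chromosome 13, 51408618 to 51422797), varied most, with a coefficient of variation of 86.6% over the 8 libraries and 35.5% over 7. It had 9.85, 16.3, 8.03 and 14.7 CPM in cKO, against 8.83, 55.0, 20.1 and 10.7 CPM in WT. WT replicate 2 was 5.14 times the median of the others, and WT replicate 3 was the next highest. The log2 fold change of −0.96 ± 0.56 (SE; 95% interval −2.24 to 0.33) was −0.12 ± 0.31 without WT replicate 2 (95% interval −0.82 to 0.59). That library also held the highest nociceptor marker sum, 2815 CPM. It was highest too for mural markers, at 444 CPM against 234 to 331 CPM in the other 7 libraries, and for fibroblast markers, at 6314 against 2109 to 3117 CPM. Red blood cell markers summed to 3060 CPM there, against 830 to 2024 CPM, and lymphocyte and granulocyte markers to 1761 CPM, against 330 to 760 CPM. The part of these cell types in the difference was not tested.

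S1pr2, a receptor that can slow cell migration (Entrez 14739, chromosome 9, 20965952 to 20976793), was the scarcest of the 4 receptors in the group. It had 3.47, 4.28, 3.51 and 4.69 CPM in cKO, against 3.03, 7.67, 3.17 and 3.80 CPM in WT. WT replicate 2 was again highest, at 2.18 times the median of the others. Its log2 fold change of −0.15 ± 0.31 (SE; 95% interval −0.86 to 0.56) was 0.26 ± 0.17 without that library (95% interval −0.13 to 0.64), so its direction rested on 1 library. S1pr4 had 1.07, 0.511, 1.07 and 0.562 CPM in cKO, against 0.527, 3.25, 0.792 and 0.809 CPM in WT, on 8 to 56 estimated counts.

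**Figure D3:**
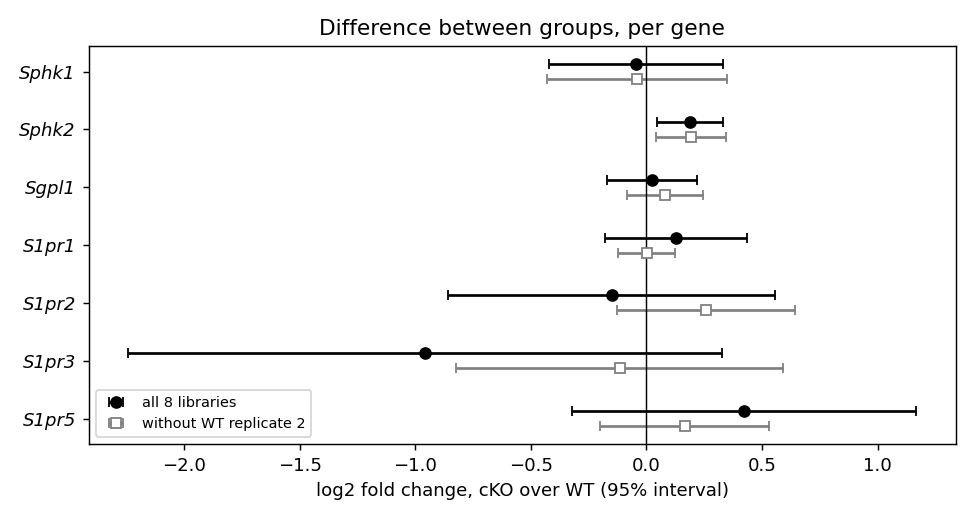
Log2 fold change of each S1P gene, cKO over WT, with its 95% interval from the edgeR fit, for all 8 libraries (filled circles) and without WT replicate 2 (open squares). S1pr3 is at −0.96 with all libraries and −0.12 without that one, S1pr2 at −0.15 and 0.26, and Sphk2 at 0.19 in both.

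The makeup of the receptor pool followed the same library. S1pr1 supplied 61.9% to 69.2% of the summed TPM of S1pr1 to S1pr5 in cKO and 65.1% to 68.6% in WT replicates 1, 3 and 4, but 54.6% in WT replicate 2. S1pr5 supplied 23.9% to 30.2% in cKO and 21.3% to 28.1% in those 3 WT libraries, but 10.8% in WT replicate 2. S1pr3 made up 25.7% of the pool there, against 3.12% to 5.45% in cKO and 3.25% to 8.02% in the other WT libraries. The pool summed to 119 to 142 TPM in cKO, and to 117 to 129 TPM in WT outside replicate 2, which had 88.7 TPM.

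Receptor levels were set against the mean log2 CPM of 12 cell type marker lists over the 7 libraries without WT replicate 2, since that library formed a cluster of its own. With the 7 genes this gave 84 relations, tested by two-sided exact permutation, and none passed after Benjamini-Hochberg adjustment, while 8 had p below 0.05 for Pearson's r before it. S1pr3 and the nociceptor markers had the lowest p (Pearson r = 0.95, permutation p = 0.00198, adjusted p = 0.167; Spearman rho = 0.96, permutation p = 0.00278, adjusted p = 0.189). Without the 2 libraries farthest from the median of the markers r was 0.92 over 5. S1pr3 and the pan-sensory neuron markers had r = 0.93 (permutation p = 0.00397, adjusted p = 0.167) and rho = 0.93 (permutation p = 0.00675, adjusted p = 0.189), with r = 0.95 without the 2 farthest. S1pr3 ran opposite to the spinal neuron markers (r = −0.93, permutation p = 0.00675, adjusted p = 0.189; rho = −0.93, permutation p = 0.00675, adjusted p = 0.189; r = −0.93 without the 2 farthest). S1pr5 and the oligodendrocyte markers had r = 0.82 (permutation p = 0.0175, adjusted p = 0.367) and rho = 0.82 (permutation p = 0.0341, adjusted p = 0.478), with r = 0.98 without the 2 farthest. The other 4 relations with p below 0.05 also failed the adjustment. S1pr2 and the oligodendrocyte markers had r = 0.82 (permutation p = 0.0296, adjusted p = 0.392) and rho = 0.79 (permutation p = 0.0480, adjusted p = 0.576), with r = 0.85 without the 2 farthest. S1pr5 ran opposite to the lymphocyte and granulocyte markers, with r = −0.78 (permutation p = 0.0373, adjusted p = 0.392), rho = −0.86 (permutation p = 0.0238, adjusted p = 0.40) and r = −0.98 without the 2 farthest. S1pr2 and those markers had r = −0.79 (permutation p = 0.0367, adjusted p = 0.392) and rho = −0.68 (permutation p = 0.110, adjusted p = 0.824), with r = −0.81 without the 2 farthest. S1pr3 and the astrocyte markers had r = −0.79 (permutation p = 0.0232, adjusted p = 0.39) and rho = −0.86 (permutation p = 0.0238, adjusted p = 0.40), with r = −0.58 without the 2 farthest. S1pr1 and the astrocyte markers had r = 0.40 (permutation p = 0.384, adjusted p = 0.978) and rho = 0.11 (permutation p = 0.840, adjusted p = 1.0), with r = −0.54 without the 2 farthest. Within a library all lists are read from the same mix of tissue, and the part of that mix in the group differences was not tested.

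**Figure D4:**
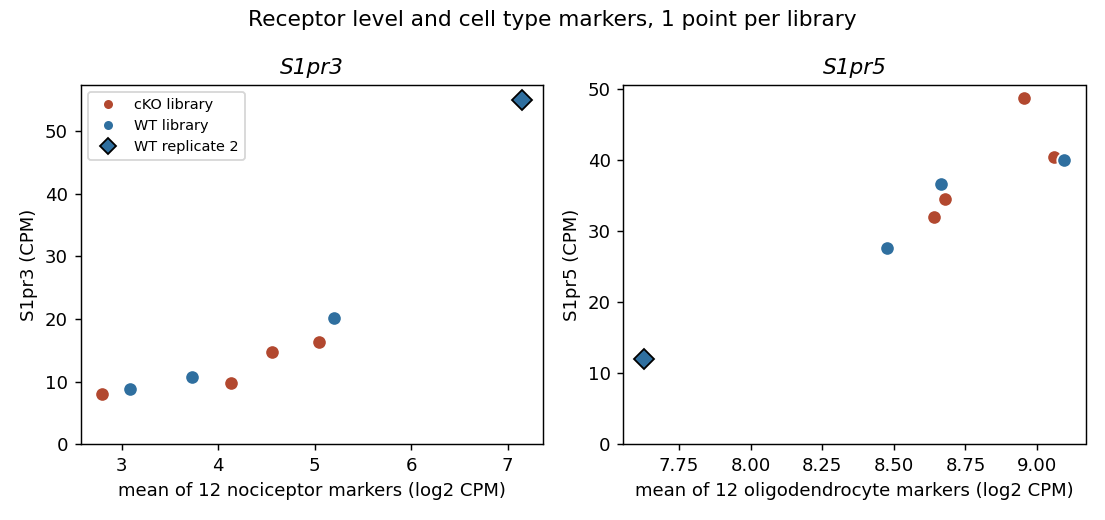
CPM of S1pr3 against the mean of 12 nociceptor markers, and of S1pr5 against the mean of 12 oligodendrocyte markers (log2 CPM), 1 point per library, cKO red and WT blue. WT replicate 2 (diamond) holds the most S1pr3, at 55.0 CPM, and the least S1pr5, at 12.02 CPM, at the ends of both marker axes.

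The genes whose profile was most like that of a member were sought among 12158 or 12159 others with a mean of at least 5 CPM, by Pearson's r of log2 CPM. Over 8 libraries Gcnt2 was closest to S1pr3 (r = 0.997), Gpr62 to S1pr5 (0.997) and Lrp1b to S1pr1 (0.991). Without WT replicate 2, Gcnt2 (0.989) and Gpr62 (0.984) were again among the 3 closest to their receptors, while Lrp1b was not for S1pr1, where Zfp746 (0.975) came first. Fam126a was among the 3 closest to Sgpl1 in both searches (0.977 over 8 and 0.980 over 7), and Maged2 was first for Sphk2 in both (0.908 and 0.943). Sphk1 had Spata33 (0.893) in first place over 8 libraries, and S1pr2 had Adh5 (0.984) over 8 and Dipk2a (0.983) over 7. The others among the 3 closest over 8 libraries were Cep164 and Bbs9 for Sphk1, Scamp4 and Dapk3 for Sphk2, Crtc2 and Tmem165 for Sgpl1, Dixdc1 and Necap1 for S1pr1, Tmem234 and Bri3 for S1pr2, Stx2 and Fstl1 for S1pr3, and Syt11 and Ipo13 for S1pr5. Over 7 libraries they included Bbs9 and Etl4 for Sphk1, Rpa1 for Sphk2, Tkt and Vcp for Sgpl1, Tbrg4 and Taf1a for S1pr1, Zfyve1 and Phc1 for S1pr2, Stard3nl and Prkca for S1pr3, and Paqr7 and Msantd3 for S1pr5. The libraries differ in their marker sums as given above, a difference all genes of a library share, and the values of r describe these libraries.

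Beyond Dbp and Rpl18, few genes lie within 5 kb of a member. Ube2o near Sphk1 stood at 171 ± 3.66 CPM in cKO and 163 ± 19.4 CPM in WT, and Car11 near Sphk2 at 40.9 ± 1.94 CPM in cKO and 41.8 ± 3.96 CPM in WT (SD, n = 4 each). Pcbd1 near Sgpl1 stood at 10.6 ± 1.096 CPM in cKO and 15.3 ± 5.94 CPM in WT, and Shc3 near S1pr3 at 134 ± 5.87 CPM in cKO and 117 ± 35.4 CPM in WT. Keap1 near S1pr5 stood at 56.3 ± 1.39 CPM in cKO and 54.8 ± 6.06 CPM in WT. None of these 5 was called. Beside S1pr4, Ncln stood at 39.1 ± 1.54 CPM in cKO and 36.6 ± 2.01 CPM in WT, and Gna15 at 1.497 ± 0.236 CPM in cKO and 1.64 ± 0.173 CPM in WT. Gm32834, a lncRNA gene that shares 45 exonic bases with S1pr3 on the opposite strand, and Fam83e near Sphk2 were not among the tested genes.

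Of 58 further genes of sphingolipid metabolism and lysophospholipid signalling, 55 were tested and none was called in either direction. Of these, 27 were higher and 28 lower in cKO. Their median log2 fold change was −0.0044, against −0.0048 over all 15098 genes and 0.02 over the 7 S1P genes. Groups did not overlap in CPM for 3 of the 55, with cKO above WT for 1 (Spns2) and below it for 2 (Sgms2 and Ugcg), against 91 genes (0.603%) above and 138 (0.914%) below over all genes. WT replicate 2 was highest for 23 and lowest for 22 of the 55, against 5665 and 5548 of all 15098 tested genes. Without that library 29 of the 55 were higher in cKO.

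No gene that supplies sphingosine was called. Ceramide synthesis had 6 of 16 tested genes higher (median −0.01), with the very-long-chain ceramide synthase Cers2 at 221 ± 34.3 CPM in cKO and 208 ± 39.0 CPM in WT. The desaturase Degs1 had 180.1 ± 11.2 CPM in cKO and 180.6 ± 26.6 CPM in WT (SD, n = 4 each). Cers1 and Cers4 had the lowest p in each direction, with log2 fold changes of 0.20 ± 0.16 and −0.20 ± 0.11 (SE). Ceramidases, which release sphingosine from ceramide, had 1 of 4 higher (median −0.09), with the lysosomal Asah1 at 116 ± 6.20 CPM in cKO and 122 ± 13.3 CPM in WT. Asah2, the neutral ceramidase, had a log2 fold change of 0.10 ± 0.16 and Acer3, an alkaline one, of −0.25 ± 0.16 (SE). Without WT replicate 2 the log2 fold changes were 0.03 for Cers2, 0.10 for Degs1, 0.06 for Cers1, −0.08 for Cers4, 0.01 for Asah1, −0.05 for Asah2 and −0.07 for Acer3, so those of Degs1, Asah1 and Asah2 changed sign.

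No gene of S1P disposal or export was called. Lipid phosphatases had 4 of 5 genes higher (median 0.05), with Plpp3 at 166 ± 11.8 CPM in cKO and 164 ± 7.52 CPM in WT, Plpp1 with a log2 fold change of −0.08 ± 0.077 and the S1P phosphatase Sgpp2 with 0.06 ± 0.052 (SE). Without WT replicate 2, 3 of 5 were higher (median 0.03), and the log2 fold changes were −0.02 for Plpp3, −0.02 for Plpp1 and 0.04 for Sgpp2. Spns2, the S1P exporter of endothelium, had 67.7, 65.8, 78.8 and 66.8 CPM in cKO, against 64.6, 31.5, 58.7 and 65.1 CPM in WT. On this scale all 4 cKO libraries lay above all 4 WT libraries, while in TPM the groups overlapped, with 44.91 in cKO replicate 2 and 45.24 in cKO replicate 4 against 45.56 in WT replicate 4. The gene was not called (log2 fold change 0.34 ± 0.21, SE; adjusted p = 0.887, edgeR), and without WT replicate 2 the log2 fold change was 0.15. Mfsd2b, the exporter of red cells and platelets, had a log2 fold change of −0.52 ± 0.31 (SE), and −0.15 without that library. Abca1, a lipid transporter, stood at 58.6 ± 2.83 CPM in cKO and 57.0 ± 6.17 CPM in WT, with a log2 fold change of 0.04, and 0.11 without that library.

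Sphingomyelin and glycosphingolipid genes had 8 of 12 higher (median 0.04), and 5 of 12 without WT replicate 2 (median −0.00). Ugt8a, the galactosyltransferase of myelin lipids, stood at 497 ± 135 CPM in cKO and 422 ± 191 CPM in WT, and the acid sphingomyelinase Smpd1 at 111 ± 2.92 CPM in cKO and 102 ± 15.2 CPM in WT (SD, n = 4 each). Their log2 fold changes were 0.24 and 0.13, and 0.06 and 0.03 without WT replicate 2. Sgms2, a sphingomyelin synthase, had 11.5, 12.3, 11.9 and 13.5 CPM in cKO, against 13.9, 24.4, 14.6 and 13.9 CPM in WT. Its groups did not overlap and it was not called (log2 fold change −0.44 ± 0.19, SE; adjusted p = 0.887, edgeR), with −0.20 without WT replicate 2. Ugcg, the glucosylceramide synthase, named after its values were seen because its groups did not overlap, had 92.7, 90.05, 90.2 and 88.6 CPM in cKO, against 93.3, 100.1, 95.9 and 97.2 CPM in WT (log2 fold change −0.10 ± 0.048, SE; adjusted p = 0.887, edgeR).

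The G protein alpha subunits that S1P receptors use had 3 of 7 higher (median −0.05), and 5 of 7 without WT replicate 2 (median 0.01). Gnai2 stood at 202 ± 3.53 CPM in cKO and 215 ± 30.4 CPM in WT, and Gnai1 at 201 ± 3.75 CPM in cKO and 183 ± 25.4 CPM in WT, while Gnai3 had a log2 fold change of −0.19 ± 0.16 (SE). Without WT replicate 2 the log2 fold changes were 0.02 for Gnai2 (−0.09 with all libraries), 0.05 for Gnai1 and 0.00 for Gnai3. Receptors of lysophosphatidic acid (LPA), the related lipid, and its producing enzyme autotaxin had 3 of 7 higher (median −0.11), and 6 of 7 without WT replicate 2 (median 0.16). Enpp2, which encodes autotaxin, stood at 633 ± 33.7 CPM in cKO and 486 ± 149 CPM in WT, and Lpar1 at 132 ± 22.1 CPM in cKO and 113 ± 14.8 CPM in WT (SD, n = 4 each). The log2 fold change of Enpp2 was 0.38, and 0.19 without WT replicate 2, and that of Lpar1 was 0.23, and 0.16 without it. Lpar5 had a log2 fold change of −1.07 ± 0.68 (SE), and −0.08 without that library.

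**Figure D5:**
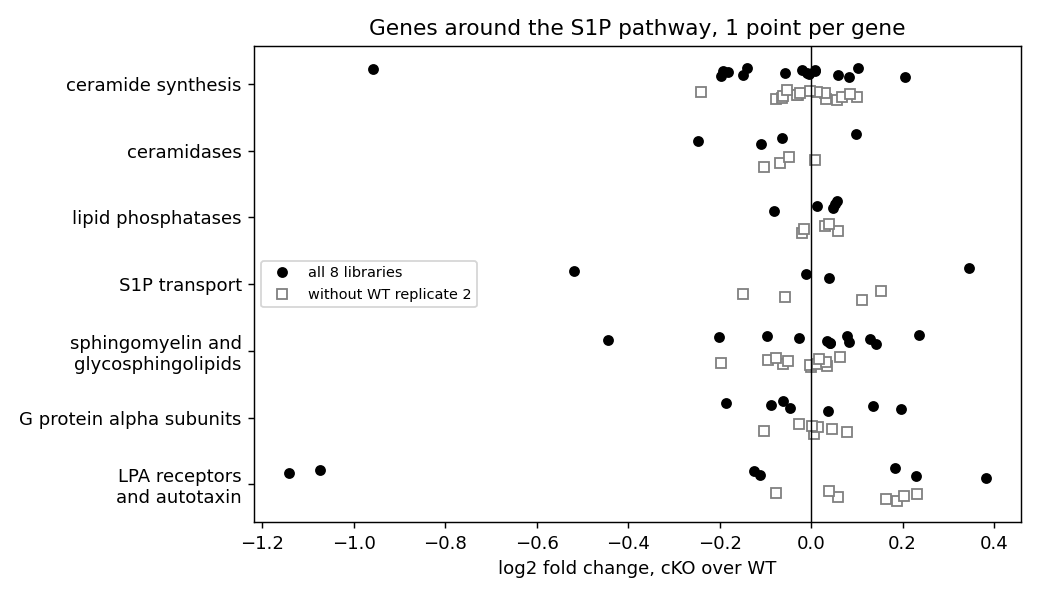
Log2 fold change, cKO over WT, of the 55 tested genes around the S1P pathway in 7 lists, 1 point per gene, with all 8 libraries (filled circles) and without WT replicate 2 (open squares). The 4 lowest filled points are Lpar3 at −1.14, Lpar5 at −1.07, the serine palmitoyltransferase subunit Sptlc3 at −0.96 and Mfsd2b at −0.52; without that library they lie at 0.20, −0.08, −0.24 and −0.15.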

How the data were processed

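Libraries were grouped by their titles. Columns named Ctrl were matched to the WT samples of the same number. The deposited table holds, per the file headers, read counts, TPM, FPKM and normalized read counts. The deposited read counts are called estimated counts here, since 10.3% to 11.0% of all values in a library are not whole (any decimal part, tolerance 0). In the values, the normalized column deposited for each library (a signal) equals the estimated counts rounded up times a constant (0.922 to 1.06), and was not tested. HISAT2 2.2.1, Bowtie2 2.4.5, RSEM 1.3.1, GRCm38 and mm10 stand in the submitters' processing notes, with no role or order. The design text names 4 sequencing batches and no label assigns libraries to them, so no within-batch value could be had. Labels do not say that replicates are separate animals, though the design text calls them biological replicates.

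Estimated counts were rounded and tested with edgeR 4.0.16 (R 4.3.3): filterByExpr, TMM, quasi-likelihood test, Benjamini-Hochberg adjustment, threshold 0.05. The pipeline was tested on simulated counts in which, unlike in the real data, no library stood apart. CPM used TMM-scaled totals, and log2 CPM a prior count of 2. Standard errors came from the fold change and F statistic. DESeq2 1.42.0, limma 3.58.1, other filters, left-out libraries and a replicate block were alternatives. Whether same-numbered libraries pair was not settled. Positions and promoters came from RefSeq GRCm38.p6 and strands from GENCODE M21; 18507 of 18560 gene identifiers matched RefSeq. All library pairs differed by more than sampling noise (chi-square per degree of freedom at least 3.64). The members, lists and relations were chosen with earlier results of these data known. Of the wider lists, the 2 genes of highest mean TPM and the gene of lowest p in each direction are named, as are genes within 5 kb of a member and the 3 most like each member. Of these, 2 are not reported here. Counting errors cover counting only.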

Additional observations from a re-analysis of the deposited data

Results flagged for a closer look

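Among 60 groups of 4 libraries, 5 had a single library far from the other 3 by Dixon's criterion, where chance gives about 1 in 20. That rate is for independent groups not chosen by their values. Here the genes share libraries, and some, among them Acer3 and Sgms2, were named for their lowest p. In 4 of the 5 the library was WT replicate 2. S1pr2 had 7.67 CPM there, against 3.03 to 3.80 CPM in the other WT libraries, and S1pr4 had 3.25 CPM, against 0.527 to 0.809 CPM. Acer3 had 32.2 CPM there, against 20.2 to 21.9 CPM, and Sgms2 had 24.4 CPM, against 13.9 to 14.6 CPM. Spns2 had 78.8 CPM in cKO replicate 3, against 65.8 to 67.7 CPM in the other cKO libraries.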

How the results depend on the processing

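Over 16 alternatives the count of called genes was 0 in 14. DESeq2 called 1 gene (Lztfl1), and edgeR without WT replicate 2 called 1 (Capn11), so the range with a library left out was 0 to 1. Unadjusted p below 0.05 was reached by 131 to 820 genes. The median log2 fold change of the S1P genes was 0.02, and −0.01 to 0.08 with a library left out. That of the 55 wider genes was −0.004, −0.02 to 0.01 with a library left out, and 0.03 on TPM with a pseudocount of 1 or 0.1 (0.030 and 0.033), where the median of all genes was 0.025 and 0.029. No S1P gene passed in any alternative. Sphk2, S1pr1, S1pr3 and S1pr5 kept their sign in all 16, S1pr2 in 15, and Sphk1 and Sgpl1 in 14. For Sphk2 the lack of overlap in CPM all but fixed this when a library was left out. Without WT replicate 2, S1pr1 stood at 0.0008 (0.13 with all libraries), S1pr3 at −0.12 (−0.96) and S1pr5 at 0.16 (0.42). S1pr2 turned to 0.26 without WT replicate 2. Sphk1 turned to at most 0.03 without cKO replicate 1 or WT replicate 1. Sgpl1 turned to at least −0.03 without cKO replicate 2 or WT replicate 1. The cause was not tested. Same-numbered libraries had correlations of their deviations of 0.008, 0.045, −0.037 and 0.253 for replicates 1 to 4. Replicate 4 of cKO and replicate 4 of WT were each other's closest library (Spearman correlation 0.996). Differently numbered libraries were not compared by their deviations, so whether the numbers pair libraries was not settled. With the replicate block 0 genes were called, the median of the S1P genes was 0.03 and that of the wider genes 0.005. Sphk1 rested on 56 to 75 counts per library and S1pr2 on 46 to 132, which limits their precision.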
